A study of Mus musculus with 18 samples.

Results

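The genes described here encode the histone lysine acetyltransferases other than Kat7: Kat5, Kat6a, Kat6b and Kat8 of the MYST family, Kat2a and Kat2b, the coactivator pair Ep300 and Crebbp, and Hat1. They were taken from the count table by their gene symbols. All 9 were present among the 27179 genes counted, and all 9 passed the filter on low counts with 37 to 2387 reads per library. The question put to them was whether their transcripts rose where Kat7 was missing.

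The libraries came from thymic epithelial cells (TEC), the stromal cells that guide T cell development, sorted from C57BL/6 mice of the Kat7 knockout (KO) or Wildtype (WT) genotype. The 6 groups were KO and WT mTEChi (medullary TEC with high MHC class II), KO and WT mTEClo (medullary TEC with low MHC class II) and KO and WT cTEC (cortical TEC). Each group had 3 libraries, from mouse pools 4 to 6 for the KO and mouse pools 1 to 3 for the WT, and every pool supplied all 3 subsets. The age of the mice, the number of mice in a pool, the deleted part of Kat7 and any cell type that drove the deletion are not given in the sources used here.

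Histone acetyltransferases move an acetyl group from acetyl-CoA to lysines of histone tails, a modification found at active promoters and enhancers. Most of them work inside large complexes whose scaffold subunits set the histone they act on. Kat7, also called HBO1, is a MYST enzyme that pairs with BRPF or JADE scaffolds, and the BRPF scaffolds also serve Kat6a and Kat6b.

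Library totals ran from 3554089 to 20054360 counts and KO libraries were the deeper ones on average. Kat7 itself was at 0.765 to 4.16 CPM (counts scaled to a common library size after TMM adjustment) in the 9 KO libraries and at 38.6 to 83.4 CPM in the 9 WT libraries, so the labelled genotype held in every library. The epithelial markers Epcam, Krt8 and Foxn1 summed to 3110 to 3700 CPM in KO libraries and 2160 to 2670 CPM in WT libraries. The cortical list (7 markers) was highest in cTEC of both genotypes, with sums of 8560 to 12700 CPM in KO cTEC and 3990 to 6760 CPM in WT cTEC, and 6 of its 7 genes were higher in KO cells of each subset. The medullary list (6 markers) had 5 genes lower and none higher in KO cTEC, with sums of 1830 to 2230 CPM in KO cTEC and 2530 to 3020 CPM in WT cTEC. In mTEChi it had 2 higher and 1 lower, and in mTEClo 1 higher and 2 lower. The 5 endothelial markers, of which 3 could be tested, summed to 10.4 to 15.0 CPM in KO cTEC and 26.5 to 42.0 CPM in WT cTEC, but to 72.7 to 80.9 CPM in KO mTEChi and 52.6 to 56.8 CPM in WT mTEChi, and 55.0 to 76.9 CPM in KO mTEClo and 24.4 to 33.1 CPM in WT mTEClo. Markers of thymocytes moved with genotype in cTEC, where 9 of 11 were higher in the KO and their summed level was 260 to 427 CPM in KO cTEC and 50.1 to 133 CPM in WT cTEC. The macrophage and dendritic list summed to 898 to 1060 CPM in KO mTEChi and 1570 to 1650 CPM in WT mTEChi. Its sums were 118 to 152 CPM in KO cTEC and 202 to 259 CPM in WT cTEC. In mTEClo the KO was the higher one, at 195 to 236 CPM against 157 to 177 CPM in the WT. The fibroblast and mural list summed to 2420 to 2560 CPM in KO cTEC and 1270 to 1440 CPM in WT cTEC, although 6 of its 10 genes were lower in the KO. This list summed to 560 to 653 CPM in KO mTEChi and 307 to 322 CPM in WT mTEChi. In mTEClo the KO was the lower one, at 720 to 822 CPM against 1090 to 1240 CPM in the WT. The list of 11 immediate early and heat shock genes, which respond to handling of cells, had 4 members lower in KO mTEChi, 5 in KO mTEClo and 6 in KO cTEC. Beside these counts, 17.1% of all genes tested were higher and 19.3% lower in KO mTEChi (adjusted p under 0.05). The shares were 18.9% and 15.8% in KO mTEClo, and 22.3% and 26.7% in KO cTEC. The part of these lists in the results below was not tested.

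Between KO and WT cells the other acetyltransferases differed by small folds and in both directions. In KO cTEC the level of Hat1, Kat8 and Ep300 was higher and that of Kat5, Kat6a and Kat2a was lower than in WT cTEC. In mTEChi, Kat8 was higher and Kat2a lower in the KO, and in mTEClo both members that changed, Kat2a and Crebbp, were lower in the KO. Kat2b and Kat6b passed the threshold in no subset. The largest fold (KO over WT) was 1.55 and the smallest 0.57 over the 27 values, and no upper bound of a 95% interval went past 1.88.

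Read against all 19364 genes tested, the share of members called was below that of all genes in the medullary subsets and above it in cTEC, by 1 or 2 genes of 9. The 2 of 9 members called in mTEChi (adjusted p under 0.05, edgeR quasi-likelihood test) stood beside 36.4% of all genes called there, the 2 of 9 in mTEClo beside 34.7%, and the 6 of 9 in cTEC beside 49.0%. By direction, 1 higher and 1 lower in mTEChi stood beside 17.1% and 19.3% of all genes, none higher and 2 lower in mTEClo beside 18.9% and 15.8%, and 3 higher and 3 lower in cTEC beside 22.3% and 26.7%. Libraries of KO and WT did not overlap for 3, 3 and 7 of the 9 members in mTEChi, mTEClo and cTEC, beside 55.9%, 49.3% and 51.0% of all genes. The median log2 fold change of the members was 0.04 in mTEChi, -0.15 in mTEClo and 0.22 in cTEC, beside -0.11, 0.01 and -0.02 over all genes. In these bulk libraries fewer cells of a type and less RNA per cell cannot be told apart.

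**Figure D1:**
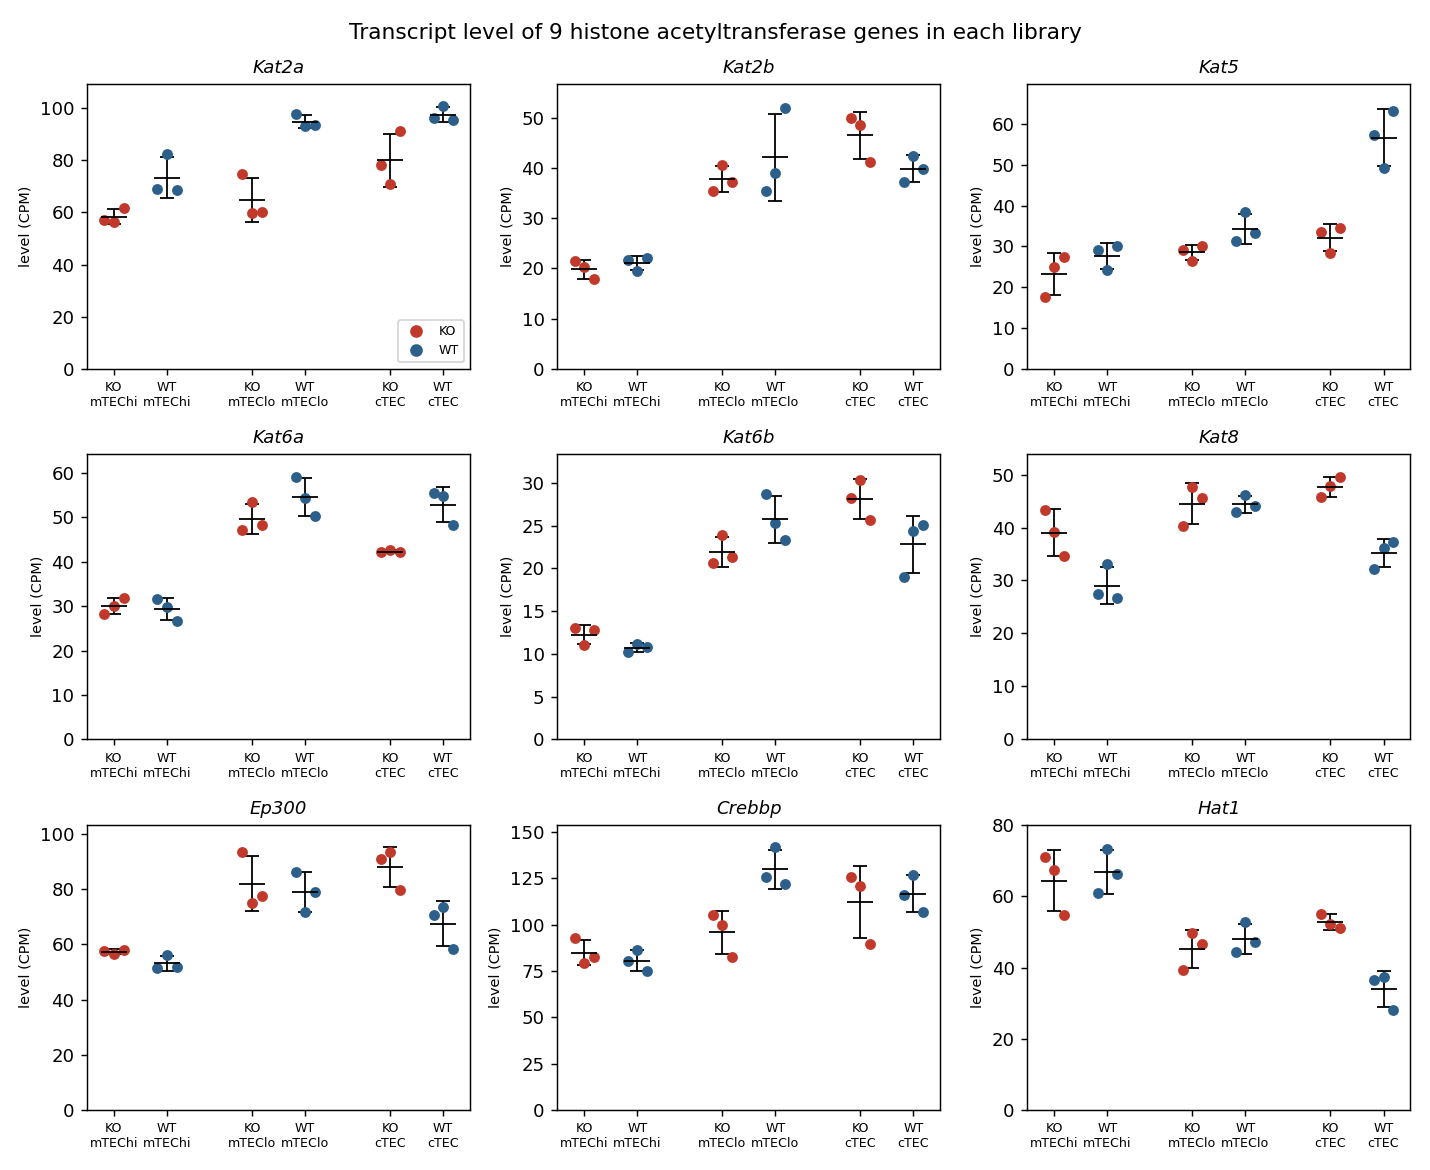
Transcript level (CPM) of each acetyltransferase gene in every library. Points are libraries, black bars the mean ± SD of 3 libraries, red KO and blue WT. Hat1, Kat8 and Ep300 sat higher in KO cTEC than in WT cTEC without overlap, and Kat5 sat at 28.4 to 34.5 CPM in KO cTEC against 49.3 to 63.3 CPM in WT cTEC.

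**Figure D2:**
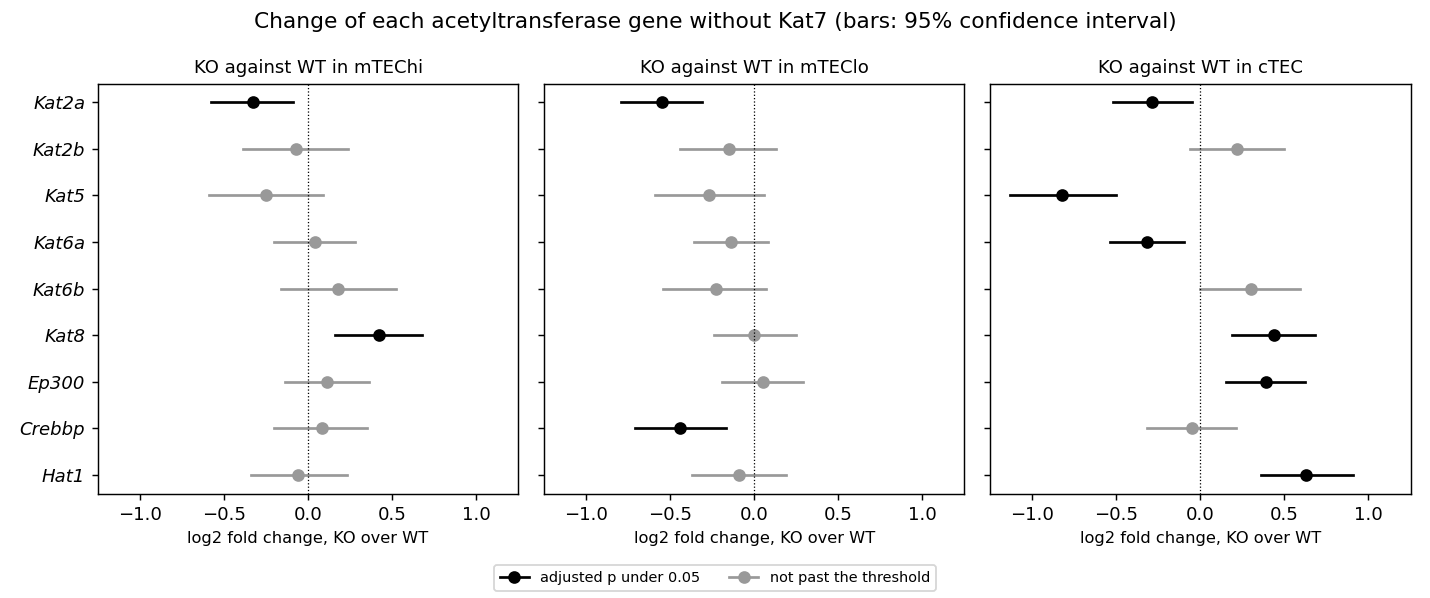
Fitted log2 fold change of each gene, KO over WT, in the 3 subsets. Points are estimates, lines 95% confidence intervals, and black marks an adjusted p under 0.05. Black points lie on both sides of 0 in mTEChi and cTEC and only below 0 in mTEClo.

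Among the MYST enzymes, the closest relatives of Kat7, Kat8 was the one that was higher in the KO. Kat8 (Entrez 67773, chromosome 7, 127912517 to 127925838 on GRCm38.p6) encodes MOF, the enzyme of the MSL and NSL complexes that acetylates histone H4. Its level was 45.7, 47.9 and 49.5 CPM in KO cTEC, against 32.2, 36.1 and 37.2 CPM in WT cTEC. All 3 KO cTEC libraries were above all 3 WT cTEC libraries, and the log2 fold change was 0.44 (SE 0.12, 95% interval 0.19 to 0.68, adjusted p = 0.00431). It measured 43.4, 39.1 and 34.6 CPM in KO mTEChi, against 27.4, 33.1 and 26.6 CPM in WT mTEChi. There too the groups did not overlap, and the log2 fold change was 0.42 (adjusted p = 0.0133, SE 0.13), but the call was lost with upper quartile scaling (adjusted p = 0.0524), without KO mTEChi pool 4 (adjusted p = 0.0562) and without WT mTEChi pool 3 (adjusted p = 0.0664, range over 12 alternatives 0.00693 to 0.0664). In mTEClo the levels were 40.2, 47.7 and 45.5 CPM in the KO and 43.0, 46.1 and 44.0 CPM in the WT. These overlapped, with a difference of 0.00 on the log2 scale (95% interval -0.24 to 0.25, adjusted p = 0.992).

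The Kat8 values may carry a limit of annotation. Its exons share 122 bases with exons of Prss8, a serine protease gene on the opposite strand, on GRCm38 (GENCODE vM21). The Kat8 exons span 2891 bases there, against a counted length of 1503 bases. Whether the counted bases include the shared ones is not given in the sources used here. The library kits do not record strand, so any reads counted in shared bases could not be assigned with certainty. Prss8 was at 90.4, 105 and 96.2 CPM in KO cTEC, against 45.0, 37.1 and 28.0 CPM in WT cTEC. This is a log2 difference of 1.41 (SE 0.16, adjusted p = 6.57e-07), larger than that of Kat8 and of the same sign. In mTEChi, where Kat8 was called, Prss8 averaged 38.1 CPM in the KO and 30.5 CPM in the WT and was not called (log2 fold change 0.32, SE 0.17, adjusted p = 0.148). Prss8 in mTEClo was higher in the KO (0.43, SE 0.16, adjusted p = 0.0478) while Kat8 was not. The part of Prss8 reads in the Kat8 counts was not tested.

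Kat5 moved the other way in cTEC. It encodes TIP60, the catalytic subunit of the mammalian NuA4 complex, which acts at promoters and at DNA breaks (Entrez 81601, chromosome 19, 5603014 to 5611556). Its level was 33.5, 28.4 and 34.5 CPM in KO cTEC, against 57.3, 49.3 and 63.3 CPM in WT cTEC. The groups were well apart, and the log2 fold change of -0.82 (SE 0.15, 95% interval -1.13 to -0.50, adjusted p = 0.00016) was the largest fall among the members. Its mTEClo values were 29.1, 26.5 and 30.0 CPM in the KO, against 31.3, 38.5 and 33.2 CPM in the WT. The libraries did not overlap, but the log2 difference of -0.27 (95% interval reaching above 0, adjusted p = 0.195) was not called. In mTEChi it was 17.6, 24.9 and 27.4 CPM in the KO, against 29.1, 24.1 and 30.0 CPM in the WT, with overlap (-0.25, adjusted p = 0.243).

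Kat6a and Kat6b are the MOZ and MORF enzymes, which share BRPF scaffolds with Kat7. Kat6a (Entrez 244349, chromosome 8, 22859442 to 22943259) was at 42.1, 42.7 and 42.1 CPM in KO cTEC, against 55.5, 54.8 and 48.3 CPM in WT cTEC. The KO libraries lay close together and below every WT library, with a log2 fold change of -0.32 (SE 0.11, adjusted p = 0.0166) that missed the threshold without WT cTEC pool 1 (adjusted p = 0.0585, range 0.000374 to 0.0585). Kat6b (Entrez 54169, chromosome 14, 21499216 to 21672478) was at 28.3, 30.4 and 25.7 CPM in KO cTEC, against 19.0, 24.4 and 25.1 CPM in WT cTEC. These did not overlap either, with the KO above the WT, but the log2 difference of 0.30 was not called (adjusted p = 0.0879). In mTEChi and mTEClo neither gene was called. Kat6a differed by 0.04 in mTEChi and -0.14 in mTEClo, and Kat6b by 0.18 and -0.23, all on the log2 scale. The sign of the Kat6a value in mTEChi turned with the scaling (-0.01 with RLE and -0.07 with upper quartile).

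Kat2a and Kat2b, known as GCN5 and PCAF, are alternative catalytic subunits of the SAGA and ATAC coactivator complexes and acetylate histone H3. Kat2a was the only member called lower in the KO of every subset, while Kat5 was below 0 in each but called only in cTEC. Kat2a (Entrez 14534, chromosome 11, 100704746 to 100712485) was at 74.7, 59.9 and 60.1 CPM in KO mTEClo, against 97.8, 93.1 and 93.7 CPM in WT mTEClo. The groups stood well apart there, with a log2 fold change of -0.55 (SE 0.11, 95% interval -0.79 to -0.31, adjusted p = 0.000929). Its level was 57.0, 56.5 and 61.7 CPM in KO mTEChi, against 68.9, 82.4 and 68.6 CPM in WT mTEChi. In cTEC it was 78.2, 70.9 and 91.1 CPM in the KO and 96.2, 101 and 95.6 CPM in the WT. No KO library reached a WT library of its subset, and the log2 fold changes were -0.33 in mTEChi (SE 0.12, adjusted p = 0.0328) and -0.29 in cTEC (SE 0.11, adjusted p = 0.0425). Both of these calls were fragile. In mTEChi the call was lost with no filter on low counts (adjusted p = 0.0929) and without KO pool 4, 5 or 6 or WT pool 2 or 3, with adjusted p of 0.0506 to 0.21. In cTEC it was lost with the fit on cTEC libraries alone (adjusted p = 0.0547) and without KO pool 4 or 5 or WT pool 1, 2 or 3, with adjusted p of 0.0562 to 0.201.

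Kat2b (Entrez 18519, chromosome 17, 53566774 to 53672721) was called nowhere. Its level was 49.9, 48.6 and 41.2 CPM in KO cTEC, against 37.2, 42.5 and 39.9 CPM in WT cTEC, with KO pool 6 inside the WT range (log2 difference 0.22, adjusted p = 0.177). Its mTEClo values were 35.5, 40.6 and 37.3 CPM in the KO and 35.5, 39.0 and 51.9 CPM in the WT. Values in mTEChi were 21.5, 20.3 and 17.8 CPM in the KO, against 21.6, 19.4 and 22.0 CPM in the WT. The medullary groups overlapped, with log2 differences of -0.15 in mTEClo and -0.07 in mTEChi.

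Ep300 and Crebbp encode p300 and CBP, paralogous coactivators that acetylate histones at enhancers and bind many transcription factors. Ep300 (Entrez 328572, chromosome 15, 81586209 to 81652077) was at 90.9, 93.6 and 79.9 CPM in KO cTEC, against 70.6, 73.6 and 58.3 CPM in WT cTEC. KO libraries were above the WT without overlap, and the log2 fold change was 0.39 (SE 0.11, 95% interval 0.15 to 0.62, adjusted p = 0.00851). The call was lost with cTEC libraries fitted alone (adjusted p = 0.0579) and without WT cTEC pool 3 (adjusted p = 0.052), with a range of 0.00571 to 0.0579. Medullary cells showed no call for Ep300, with 57.8, 56.5 and 57.9 CPM in KO mTEChi, against 51.5, 56.3 and 51.8 CPM in WT mTEChi. The mTEChi groups just failed to overlap, with a log2 difference of 0.11. In mTEClo the 3 KO values of 93.4, 75.1 and 77.7 CPM lay across the WT values of 86.2, 71.9 and 79.0 CPM. Crebbp (Entrez 12914, chromosome 16, 4081334 to 4213957) changed in a different subset. It was at 105, 100 and 82.7 CPM in KO mTEClo, against 126, 142 and 122 CPM in WT mTEClo. The KO libraries were all below the WT libraries (log2 fold change -0.44, SE 0.13, 95% interval -0.71 to -0.17, adjusted p = 0.0118). Without KO mTEClo pool 6 or WT mTEClo pool 2 the adjusted p was 0.0789 and 0.0823 (range 0.00247 to 0.0823). In cTEC the libraries overlapped at 126, 121 and 89.8 CPM in the KO and 116, 127 and 107 CPM in the WT, and in mTEChi at 92.7, 79.5 and 82.7 CPM in the KO and 80.3, 86.4 and 75.1 CPM in the WT.

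Hat1 had the largest rise. It encodes the enzyme that acetylates newly made histone H4 before chromatin assembly, with Rbbp7 as its partner (Entrez 107435, chromosome 2, 71389260 to 71441622). Its level was 55.2, 52.2 and 51.0 CPM in KO cTEC, against 36.5, 37.4 and 28.2 CPM in WT cTEC. Every KO cTEC library was above every WT cTEC library, with a log2 fold change of 0.63 (SE 0.13, 95% interval 0.36 to 0.91, adjusted p = 0.000567), a fold of 1.55. Values in mTEChi were 71.1, 67.3 and 54.8 CPM in the KO and 60.9, 73.4 and 66.2 CPM in the WT. Those in mTEClo were 39.3, 49.6 and 46.7 CPM in the KO and 44.4, 52.8 and 47.1 CPM in the WT. KO and WT overlapped in both medullary subsets, with log2 differences of -0.06 and -0.09.

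Other genes of DNA replication moved with Hat1 in cTEC. The 20 S phase genes summed to 563 to 587 CPM in KO cTEC and 396 to 413 CPM in WT cTEC, with 10 higher and 1 lower. Of all genes 22.3% were called higher and 26.7% lower there. Of 15 mitosis genes 11 were higher in KO cTEC and none lower, with sums of 177 to 247 CPM in KO cTEC and 95.3 to 145 CPM in WT cTEC. The same KO cTEC libraries had the higher thymocyte marker sums given above. In mTEClo the S phase sums overlapped, at 397 to 455 CPM in the KO and 420 to 460 CPM in the WT, and in mTEChi they were 662 to 785 CPM in the KO and 624 to 722 CPM in the WT. Of the 15 mitosis genes 4 were lower and none higher in KO mTEChi, beside 19.3% and 17.1% of all genes. Their sums were 469 to 626 CPM in the KO and 683 to 821 CPM in the WT, while Hat1 overlapped. In mTEClo 2 of 15 were higher, beside 18.9% of all genes, with overlapping sums of 104 to 153 CPM in the KO and 101 to 129 CPM in the WT. The 5 chaperones and partners of HAT1 had 3 members higher and none lower in KO cTEC, beside 22.3% and 26.7% of all genes. Among them was the histone-binding protein gene Rbbp4 at 304 ± 43.3 CPM in the KO and 139 ± 16.5 CPM in the WT (SD, n = 3 each, log2 fold change 1.13, adjusted p = 1.37e-06). Asf1b, a chaperone that hands histones to assembly factors, was at 6.95 ± 1.31 CPM in KO cTEC and 3.34 ± 1.52 CPM in WT cTEC (1.04, adjusted p = 0.00565). Of these 5 genes none was higher and 1 lower in KO mTEChi, and 1 was higher and 1 lower in KO mTEClo. Their sums were 690 to 870 CPM in KO mTEChi and 870 to 928 CPM in WT mTEChi. In mTEClo the sums were 770 to 837 CPM in the KO and 629 to 720 CPM in the WT. The part of dividing cells or of carried-over thymocytes in the Hat1 level was not tested.

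**Figure D3:**
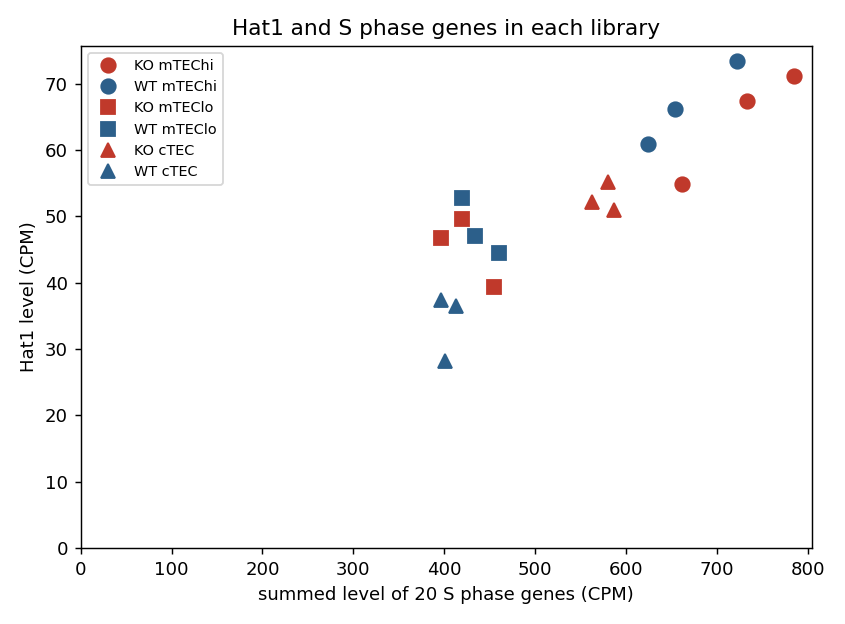
Level of Hat1 (CPM, vertical axis) against the summed level of 20 S phase genes (CPM, horizontal axis) in each library. Red is KO and blue WT, circles mTEChi, squares mTEClo and triangles cTEC. The 3 KO cTEC libraries lie above and to the right of the 3 WT cTEC libraries, and the medullary KO and WT libraries are mixed.

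The difference between subsets was tested directly as a contrast of KO effects. Hat1 passed in both comparisons with cTEC. Its KO effect was lower in mTEChi than in cTEC by 0.69 on the log2 scale (log2 difference -0.69, SE 0.19, adjusted p = 0.00868) and lower in mTEClo than in cTEC (-0.72, SE 0.19, adjusted p = 0.00767). It was the 1 member of 9 called in each, beside 31.5% and 26.0% of all genes called (13.2% and 9.54% in the same direction). Between mTEChi and mTEClo no member was called, beside 13.5% of all genes (6.72% higher and 6.78% lower). There 2 members had an unadjusted p under 0.05, DESeq2 called 0, and with the mouse pool as a block Crebbp was called (0.52, adjusted p = 0.0152), against 0.51 (adjusted p = 0.0719) without it and a range of 0.0152 to 0.176 over 17 alternatives. The Crebbp effect in mTEClo against cTEC was likewise called with the pool block (-0.38, adjusted p = 0.0409) and without KO cTEC pool 6 (-0.53, adjusted p = 0.0298) and not otherwise (-0.39, adjusted p = 0.124). The Kat5 effects in mTEChi (0.57, adjusted p = 0.0552) and mTEClo (0.55, adjusted p = 0.0641) against that in cTEC missed the threshold. The difference between mTEChi and cTEC passed with RLE (0.59, adjusted p = 0.0468), no filter (0.64, adjusted p = 0.0381) and DESeq2 (0.60, adjusted p = 0.0377), and that between mTEClo and cTEC with DESeq2 (0.57, adjusted p = 0.0419). They also passed without KO mTEChi pool 4 (adjusted p = 0.00892) or WT cTEC pool 2 (adjusted p = 0.0282) in the contrast with mTEChi, and without WT mTEClo pool 2 (adjusted p = 0.0463) or WT cTEC pool 2 (adjusted p = 0.0344) in that with mTEClo. The Kat8 and Kat6b effects in mTEClo against cTEC missed it too (-0.44, adjusted p = 0.0608, and -0.53, adjusted p = 0.0588). Kat8 passed with upper quartile scaling (-0.48, adjusted p = 0.0389) and DESeq2 (-0.41, adjusted p = 0.0446), and Kat6b with upper quartile scaling (-0.57, adjusted p = 0.0409) and without WT cTEC pool 3 (-0.60, adjusted p = 0.0369). Of Kat6a, the effect in mTEChi against cTEC was 0.36 (adjusted p = 0.0848) and was called with DESeq2 (0.39, adjusted p = 0.042) and without WT cTEC pool 3 (adjusted p = 0.0472).

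Levels can be compared between genes only roughly, after division by the counted length. The counted length of Kat8 was 1503 bases, against 2891 bases of annotated exons. Its level per kilobase and its rank carry that limit. Per kilobase of counted length, Hat1 had the highest mean of the 9 in mTEChi, at 40.9 ± 5.43 CPM per kilobase in the KO and 42.4 ± 3.98 CPM per kilobase in the WT (SD, n = 3 each). In KO cTEC it was again first, at 33.5 ± 1.37 CPM per kilobase, whereas in WT cTEC it stood behind Kat2a, Kat8 and Kat5, at 21.6 ± 3.23 CPM per kilobase. Its neighbours in that order, Kat8 at 31.7 ± 1.27 in KO cTEC, and Kat5 at 22.3 ± 2.75 and Kat8 at 23.4 ± 1.76 in WT cTEC, lay within or near the spread. Kat2a led in WT cTEC at 32.0 ± 1.02 CPM per kilobase. In mTEClo the order of Kat8, Hat1 and Kat2a in the KO (29.6 ± 2.59, 28.7 ± 3.37 and 21.3 ± 2.79 CPM per kilobase) and of Kat2a, Hat1 and Kat8 in the WT (31.1 ± 0.829, 30.5 ± 2.72 and 29.5 ± 1.05) rested on differences mostly within the spread. Crebbp, Kat5, Ep300 and Kat2b took the middle ranks in most groups, and Kat6b was the lowest member in every group, at 1.47 to 3.83 CPM per kilobase. Kat7 in WT cells lay in the middle of the 10 genes in mTEChi and cTEC and near the low end in mTEClo, at 9.08, 12.1 and 7.78 CPM per kilobase.

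The 9 members together showed no rise that was stable to scaling. Their sum was 122 ± 6.35 CPM per kilobase in KO mTEChi and 123 ± 8.17 in WT mTEChi, 129 ± 3.1 in KO mTEClo and 150 ± 4.7 in WT mTEClo, and 148 ± 2.65 in KO cTEC and 140 ± 3.61 in WT cTEC (SD, n = 3 each). mTEClo had the largest difference, -20.1 CPM per kilobase, and there KO libraries were below WT libraries with TMM, RLE and upper quartile scaling. In cTEC the KO was higher by 7.63 CPM per kilobase without overlap with TMM, but by 0.446 with RLE and 2.96 with upper quartile scaling, where the groups overlapped. In mTEChi the groups overlapped under each of the 3 scalings. Kat7 differed by -8.69 CPM per kilobase in mTEChi, -7.58 in mTEClo and -11.6 in cTEC. Its share of the summed level of the 10 genes was 0.316%, 0.159% and 0.363% in KO mTEChi, mTEClo and cTEC, against 6.9%, 4.96% and 7.94% in the WT. Among the 5 MYST genes that share was 0.959%, 0.424% and 1.01% in the KO, against 20.6%, 12.9% and 18.2% in the WT. Kat5, Kat6a, Kat6b and Kat8 summed to 40.1 ± 0.924 CPM per kilobase in KO mTEChi and 34.9 ± 1.27 in WT mTEChi, without overlap with TMM. KO minus WT of this sum in mTEChi was 5.18 with TMM, 4.1 with RLE and 2.59 with upper quartile scaling. Kat8 alone differed by 6.64 there with TMM. In the same order the sum differed by -3.29, -4.99 and -6.39 in mTEClo, and by -1.76, -4.36 and -3.32 in cTEC. All these sums and shares rest on the counted lengths, with the limit for Kat8 given above.

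Within cTEC the members differed in both directions. Per kilobase, KO minus WT was 11.9 CPM for Hat1, 8.34 for Kat8 and 2.36 for Ep300, against -9.66 for Kat5, -5.77 for Kat2a and -1.16 for Kat6a. The members not called there differed by 1.42 (Kat2b), 0.72 (Kat6b) and -0.539 (Crebbp). In mTEClo, Kat2a (-9.83) and Crebbp (-4.54) made up most of the fall of the sum.

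**Figure D4:**
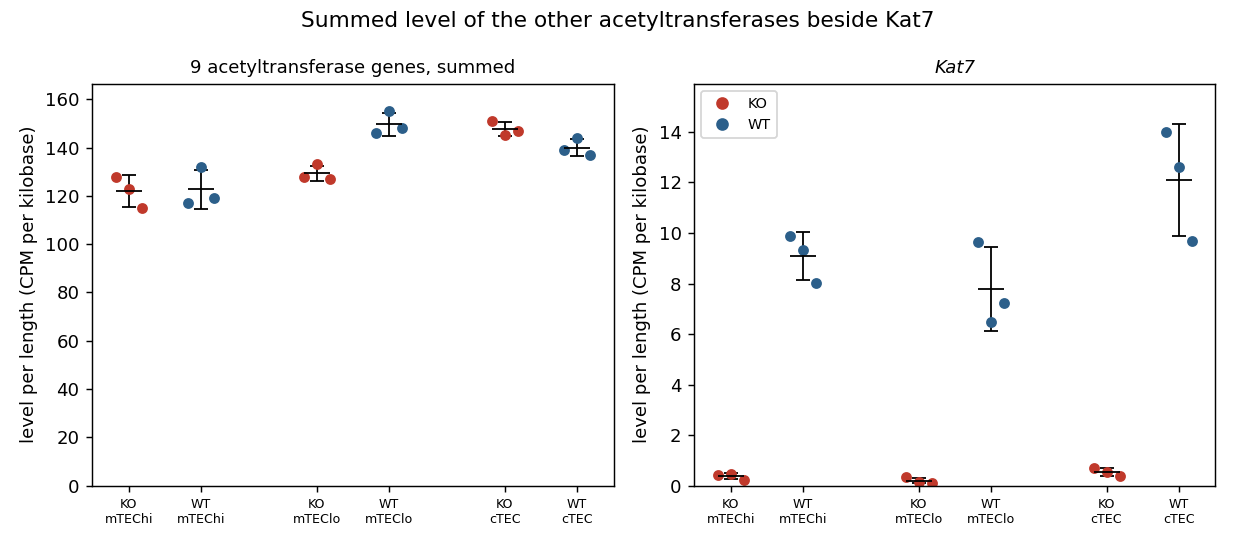
Summed level of the 9 members (left) and level of Kat7 (right), both in CPM per kilobase on axes that start at 0. Points are libraries and bars the mean ± SD of 3. The sum of the members in KO mTEClo sits at 127 to 133, below the WT mTEClo values of 146 to 155, and Kat7 is near 0 in every KO library.

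The balance between paralogs is free of library scaling, since both genes are read from the same library, and it is given as a description without a test. Ep300 relative to Crebbp (log2 ratio of levels per length) was -0.56 ± 0.16 in KO cTEC and -1.01 ± 0.08 in WT cTEC, and -0.44 ± 0.17 in KO mTEClo and -0.94 ± 0.23 in WT mTEClo (SD, n = 3 each). In both subsets the KO libraries were above the WT libraries, with Ep300 called higher in KO cTEC and Crebbp called lower in KO mTEClo, whereas in mTEChi the ratios of -0.78 ± 0.1 in the KO and -0.82 ± 0.05 in the WT overlapped. Kat6a relative to Kat6b was 0.28 ± 0.11 in KO cTEC and 0.91 ± 0.31 in WT cTEC, without overlap. In mTEClo that ratio was 0.86 ± 0.02 in the KO and 0.77 ± 0.04 in the WT, apart but by little, and in mTEChi 0.98 ± 0.17 in the KO and 1.13 ± 0.16 in the WT. Kat2a relative to Kat2b was 1.41 ± 0.32 in KO cTEC and 1.92 ± 0.07 in WT cTEC without overlap, and overlapped in mTEClo (1.40 ± 0.27 in the KO, 1.82 ± 0.31 in the WT) and in mTEChi (2.19 ± 0.21 in the KO, 2.43 ± 0.25 in the WT). Of all single genes 55.9%, 49.3% and 51.0% had KO and WT libraries apart in mTEChi, mTEClo and cTEC. The share among other gene pairs was not determined.

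**Figure D5:**
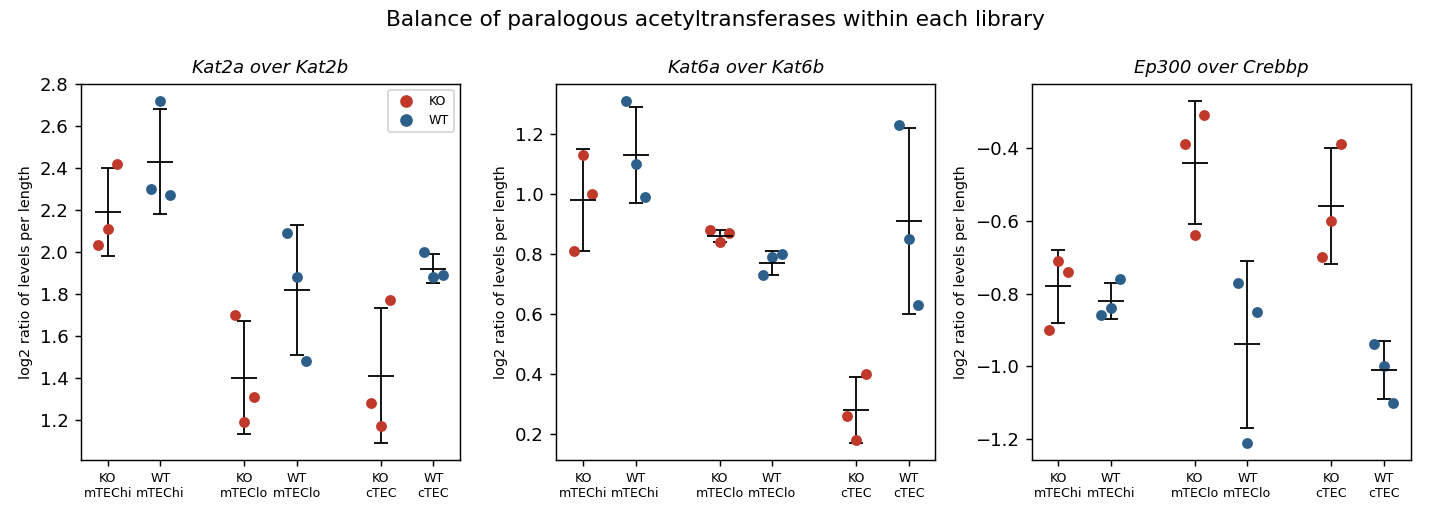
Log2 ratio of levels per length for 3 pairs of paralogs in every library. Points are libraries and bars the mean ± SD of 3. In cTEC the KO and WT libraries are apart for all 3 pairs, and in mTEChi they overlap for all 3. Of all single genes 51.0% were apart in cTEC and 55.9% in mTEChi, and the share among other gene pairs was not determined. The vertical axes differ between panels and do not start at 0.

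In both genotypes mTEChi had the lowest mean level of the 3 subsets for 8 of the 9 members, and the highest for Hat1. In WT cells, mTEChi against mTEClo had 1 member higher and 7 lower, beside 59.3% of all genes called, and mTEChi against cTEC also had 1 higher and 7 lower, beside 64.4%. Of all genes, 26.7% and 28.5% were called lower, and 32.6% and 35.9% higher. The median member was lower by a log2 value of -0.60 and -0.53 with TMM, beside medians over all genes of 0.08 and 0.14. Upper quartile scaling put the medians over all genes at 0.20 and 0.32. It shifted the members upward too, with Kat2a at -0.25 and -0.22 in place of -0.37 and -0.41. These contrasts share the WT mTEChi libraries. The steepest against mTEClo were Kat6b (means 10.8 CPM in WT mTEChi and 25.8 CPM in WT mTEClo, log2 fold change -1.26, adjusted p = 1.37e-06) and Kat2b (21.0 and 42.1 CPM, -1.01, adjusted p = 8.61e-06), followed by Kat6a (-0.90), Crebbp (-0.69), Kat8 (-0.60) and Ep300 (-0.57). Kat5 averaged 27.7 CPM in WT mTEChi and 56.6 CPM in WT cTEC, with a log2 fold change of -1.04 (adjusted p = 1.03e-05). It did not pass between mTEChi and mTEClo (-0.31, adjusted p = 0.102), except with only these groups fitted (-0.34, adjusted p = 0.0498). Several of the weaker calls rested on single libraries or a scaling. Kat2a in mTEChi against mTEClo (-0.37, adjusted p = 0.0107) was lost without WT mTEChi pool 1 or 3 (adjusted p = 0.0521 and 0.0683) and with upper quartile scaling (-0.25, adjusted p = 0.0674), and Ep300 in mTEChi against cTEC (-0.34, adjusted p = 0.0162) was lost without WT mTEChi pool 1 or 3 or WT cTEC pool 2 (adjusted p = 0.0519, 0.0645 and 0.0612) and with RLE (-0.27, adjusted p = 0.0571), DESeq2 (-0.27, adjusted p = 0.0624) and upper quartile scaling (-0.15, adjusted p = 0.264). Kat2a in mTEChi against cTEC (-0.41, adjusted p = 0.00427) was lost with upper quartile scaling (-0.22, adjusted p = 0.0893). The split against cTEC was then 1 higher and 6 lower with RLE and DESeq2, and 1 higher and 5 lower with upper quartile scaling. Kat8 in mTEChi against cTEC (-0.27, adjusted p = 0.0622) was called without WT mTEChi pool 2 (adjusted p = 0.0243) or WT cTEC pool 1 (adjusted p = 0.0335) and with no filter (-0.39, adjusted p = 0.0163).

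Hat1 ran opposite to the rest in WT cells. Its mean was 66.8 CPM in WT mTEChi and 48.1 CPM in WT mTEClo (log2 fold change 0.48, adjusted p = 0.00518), and 34.0 CPM in WT cTEC (mTEChi over cTEC 0.98, adjusted p = 3.33e-06). Between WT mTEClo and WT cTEC 3 members were called, beside 27.4% of all genes (13.0% higher and 14.4% lower). Hat1 (0.50, adjusted p = 0.00947) and Kat8 (0.33, adjusted p = 0.0429) were higher in mTEClo and Kat5 (-0.72, adjusted p = 0.00159) was lower. Hat1 missed the threshold there without WT mTEClo pool 2 (adjusted p = 0.0555) and with only these groups fitted (0.0574). Kat8 missed it with no filter (0.125), with only these groups fitted (0.126) and without any one of WT mTEClo pools 1, 2 and 3 or WT cTEC pools 1 and 2 (adjusted p of 0.0597 to 0.143).

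KO mTEChi against KO mTEClo had 1 member higher and 4 lower, beside 45.3% of all genes called (23.0% higher and 22.4% lower). The higher one was Hat1 (64.4 and 45.2 CPM, log2 fold change 0.51, adjusted p = 0.00362) and the lower ones were Kat2b (-0.92), Kat6b (-0.85), Kat6a (-0.72) and Ep300 (-0.52). KO mTEChi against KO cTEC had 8 members lower and none higher, beside 62.4% of all genes (34.0% higher and 28.4% lower), with Kat2b (-1.22) and Kat6b (-1.20) the steepest. Of these 8, Kat5 (-0.47, adjusted p = 0.0136) was lost without KO mTEChi pool 4 or KO cTEC pool 4 or 6 (adjusted p of 0.0516 to 0.135), Kat8 (-0.29, adjusted p = 0.0417) without KO mTEChi pool 5 or 6 or KO cTEC pool 4, 5 or 6 (0.0742 to 0.234), and Crebbp (-0.40, adjusted p = 0.0106) without KO mTEChi pool 5 or KO cTEC pool 4 (0.0694 and 0.0932). Hat1, which averaged 64.4 CPM in KO mTEChi and 52.8 CPM in KO cTEC, was not called (0.29, adjusted p = 0.0638). It was called higher in KO mTEChi with RLE (0.39, adjusted p = 0.0159), upper quartile scaling (0.42, adjusted p = 0.0108), DESeq2 (0.39, adjusted p = 0.0119), only these groups fitted (0.32, adjusted p = 0.0333) and without KO mTEChi pool 6 (adjusted p = 0.016). The split became 1 higher and 6 lower with RLE and DESeq2, and 1 higher and 5 lower with upper quartile scaling. The calls lost were Kat8 (adjusted p = 0.178 with RLE and with DESeq2) and Crebbp (0.0532 and 0.0549), and with upper quartile scaling Kat5 (0.0709), Kat8 (0.263) and Crebbp (0.0758). With only these groups fitted Kat8 was lost (0.0792). KO mTEClo against KO cTEC had 1 member called, beside 37.0% of all genes (21.2% higher and 15.8% lower). This was Kat2a at 64.9 and 80.1 CPM (-0.30, adjusted p = 0.0408), lost without KO mTEClo pool 5 or 6 or KO cTEC pool 4 or 6 (adjusted p of 0.0881 to 0.233), with upper quartile scaling (0.0524) and with only these groups fitted (0.0714). Kat6a passed there with DESeq2 (0.24, adjusted p = 0.047) and Kat6b with only these groups fitted (-0.33, adjusted p = 0.0485). Without KO cTEC pool 6, Crebbp passed as well (-0.37, adjusted p = 0.0289).

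The promoters of Kat8, Kat5, Kat2a and Hat1 are shown because these genes carried the KO calls that held under each alternative tried: Kat8, Kat5 and Hat1 in cTEC and Kat2a in mTEClo. Each run is the 250 bases before a RefSeq start on GRCm38.p6, in the direction of transcription. Capitals mark matches on either strand to the GC box (GGGCGG), the CCAAT box (CCAAT) or the ETS motif (CCGGAA).
Kat8, chr7:127912267-127912516, plus strand: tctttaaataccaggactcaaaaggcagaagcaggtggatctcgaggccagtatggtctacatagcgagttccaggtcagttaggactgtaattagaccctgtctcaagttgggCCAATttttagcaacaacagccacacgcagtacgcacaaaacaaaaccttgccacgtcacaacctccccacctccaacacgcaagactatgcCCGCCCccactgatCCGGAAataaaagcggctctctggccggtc
Kat5, chr19:5610095-5610344, minus strand: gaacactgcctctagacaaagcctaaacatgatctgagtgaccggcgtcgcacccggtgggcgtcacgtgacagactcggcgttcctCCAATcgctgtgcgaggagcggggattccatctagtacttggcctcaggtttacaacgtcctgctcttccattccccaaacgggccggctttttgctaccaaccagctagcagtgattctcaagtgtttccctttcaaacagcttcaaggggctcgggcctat
Kat5, chr19:5609745-5609994, minus strand: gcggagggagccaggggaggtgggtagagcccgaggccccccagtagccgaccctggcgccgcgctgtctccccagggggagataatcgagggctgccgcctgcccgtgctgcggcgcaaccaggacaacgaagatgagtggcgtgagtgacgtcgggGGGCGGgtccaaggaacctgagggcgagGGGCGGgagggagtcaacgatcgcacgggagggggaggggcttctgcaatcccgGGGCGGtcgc
Kat2a, chr11:100712468-100712717, minus strand: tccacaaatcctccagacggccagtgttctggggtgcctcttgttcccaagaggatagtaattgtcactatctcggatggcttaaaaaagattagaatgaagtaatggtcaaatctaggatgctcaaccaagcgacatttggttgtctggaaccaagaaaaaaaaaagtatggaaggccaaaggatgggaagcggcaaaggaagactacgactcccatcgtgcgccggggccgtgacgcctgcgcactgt
Hat1, chr2:71389010-71389259, plus strand: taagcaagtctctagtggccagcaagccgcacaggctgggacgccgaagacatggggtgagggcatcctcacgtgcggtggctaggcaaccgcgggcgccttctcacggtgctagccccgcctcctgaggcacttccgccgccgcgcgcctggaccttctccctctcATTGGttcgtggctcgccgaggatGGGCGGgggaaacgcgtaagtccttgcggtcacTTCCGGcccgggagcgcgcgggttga

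Kat5 has 2 starts in the RefSeq table and both are shown, and of the 2 starts of Kat8 the one at the 5′ end of the gene is shown. Both Kat5 windows lie inside the gene span of 5603014 to 5611556. The second lies downstream of the start that the first precedes, so it holds bases inside the gene as seen from that start. The Kat8 and Hat1 windows each hold 1 GC box, 1 CCAAT box and 1 ETS match. The upstream Kat5 window holds 1 CCAAT box and the other one 3 GC boxes, and the Kat2a window holds none of these letters. GC content was 51.2% for Kat8, 55.2% and 71.6% for Kat5, 48.8% for Kat2a and 67.6% for Hat1. Of 32851 promoters of the same length, 32.7% hold a GC box, 33.8% a CCAAT box and 12.0% an ETS match. The TATA box (TATAAA, in 12.4% of promoters) and the E2F motifs (TTTCCCGC, 0.895%, and TTTGGCGC, 0.417%) matched none of the 5 windows. A match describes letters and shows no binding.

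Subunits of the complexes in which the members work changed in both directions. The counts here and in the paragraphs below stand beside the shares of all genes called. These were 17.1% higher and 19.3% lower in KO mTEChi, 18.9% and 15.8% in KO mTEClo, and 22.3% and 26.7% in KO cTEC. Of 27 SAGA and ATAC subunits, 9 were higher and 4 lower in KO mTEChi, 5 higher and 4 lower in KO mTEClo, and 7 higher and 5 lower in KO cTEC, with median log2 fold changes of 0.16, 0.04 and 0.22. The mTEClo and cTEC counts were near the shares of all genes. Taf9b, a TAF9 paralog, was at 47.5 ± 5.36 CPM in KO mTEClo and 25.2 ± 8.61 CPM in WT mTEClo (log2 fold change 0.91, adjusted p = 0.00149) and was higher in the KO of the other subsets too (0.84 in mTEChi and 0.72 in cTEC). Supt7l, a structural subunit of SAGA, was at 34.0 ± 2.03 CPM in KO cTEC and 16.9 ± 3.87 CPM in WT cTEC (1.01, adjusted p = 5.85e-05), with 0.75 in mTEChi and 0.61 in mTEClo, both called. Kat2a itself was lower in the KO of each of these subsets.

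Of 17 TIP60 subunits, 2 were higher and none lower in KO mTEChi, 2 higher and 4 lower in KO mTEClo, and 7 higher and 1 lower in KO cTEC (median log2 fold change 0.15), the subset where Kat5 itself was lower. Vps72, a histone variant chaperone, was at 124 ± 3.27 CPM in KO cTEC and 85.8 ± 5.99 CPM in WT cTEC (0.54, adjusted p = 8.22e-05). Epc1, the scaffold that holds the catalytic subunit, was the lower one, at 22.4 ± 0.905 CPM in KO cTEC and 35.7 ± 3.87 CPM in WT cTEC (-0.67, adjusted p = 0.000475). Of 11 MSL and NSL subunits, 4 were higher and 1 lower in KO mTEChi, 1 and 1 in KO mTEClo, and 1 and 3 in KO cTEC. Msl3, the chromodomain subunit of MSL, was higher in each subset (0.33, 0.52 and 0.59 in mTEChi, mTEClo and cTEC), and the scaffold gene Msl1 was lower in KO mTEClo (-0.48, adjusted p = 0.0261) and KO cTEC (-0.39, adjusted p = 0.0474).

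The 5 MOZ and MORF subunits, which include scaffolds that Kat7 also uses, had no member higher in any subset. None was lower in KO mTEChi, 1 in KO mTEClo and 1 in KO cTEC. Among all genes the share called higher was 17.1%, 18.9% and 22.3% in mTEChi, mTEClo and cTEC, and the share called lower 19.3%, 15.8% and 26.7%. For a list of 5 genes, these counts were near the shares of all genes. Brpf1 was at 27.0 ± 1.05 CPM in KO cTEC and 52.9 ± 9.73 CPM in WT cTEC (-0.97, adjusted p = 1.69e-05) and was at 25.1 ± 0.785 CPM in KO mTEChi and 26.5 ± 2.69 CPM in WT mTEChi. Brpf3 was at 19.3 ± 2.1 CPM in KO mTEClo and 32.8 ± 3.6 CPM in WT mTEClo (-0.76, adjusted p = 0.00111). No call was made for either in the remaining subsets.

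Partners of p300 and CBP were more often higher than lower. Of 11, 7 were higher in KO mTEChi, 3 in KO mTEClo and 5 in KO cTEC, with 1 lower, in cTEC, and the medians were 0.56, 0.18 and 0.27 on the log2 scale. These stood beside 17.1%, 18.9% and 22.3% of all genes called higher. Cited4, a small coregulator that binds both proteins, was at 67.0 ± 9.23 CPM in KO mTEClo and 15.6 ± 1.75 CPM in WT mTEClo (2.10, adjusted p = 6.87e-07), with 1.98 in cTEC and 0.92 in mTEChi. Its relative Cited1 was at 22.3 ± 4 CPM in KO mTEClo and 5.18 ± 1.48 CPM in WT mTEClo (2.12, adjusted p = 1.52e-06), with 1.31 in cTEC and 0.64 in mTEChi.

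Of 12 other proteins proposed as acetyltransferases, 7 were higher and none lower in KO mTEChi, 4 and none in KO mTEClo, and 3 and 2 in KO cTEC. Elp3, the catalytic subunit of Elongator, was at 88.2 ± 7.35 CPM in KO cTEC and 55.9 ± 4.54 CPM in WT cTEC (0.66, adjusted p = 0.000194) and was called in the medullary subsets (0.38 and 0.51 in mTEChi and mTEClo). Ncoa3, a nuclear receptor coactivator that is also on the list of p300 and CBP partners, was higher in KO mTEChi (0.56) and KO cTEC (0.48).

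Enzymes that remove acetyl groups changed in both directions. Of 11 zinc-dependent deacetylases 1 was higher and 2 lower in KO mTEChi, 1 and 3 in KO mTEClo, and 1 and 3 in KO cTEC. Among all genes 19.3%, 15.8% and 26.7% were lower in mTEChi, mTEClo and cTEC. The counts of lower deacetylases in mTEChi and cTEC were near these shares. Hdac9, a class IIa deacetylase, was at 0.941 ± 0.454 CPM in KO cTEC and 11.3 ± 6.37 CPM in WT cTEC (-3.60, adjusted p = 6.29e-07) and was lower in KO mTEChi (-0.97) and KO mTEClo (-1.30). Hdac11 was higher in KO mTEChi (0.52, adjusted p = 0.0135) and KO cTEC (0.41, adjusted p = 0.0193). Of 7 sirtuins, the NAD-dependent deacylases, 3 were higher and 2 lower in KO mTEChi, none passed the threshold in KO mTEClo, and 4 were higher in KO cTEC, where Sirt2 was at 117 ± 6.65 CPM in the KO and 65.9 ± 5.35 CPM in the WT (0.83, adjusted p = 8.1e-07) and Sirt6 at 16.9 ± 1.72 CPM in the KO and 11.9 ± 1.58 CPM in the WT (0.51, adjusted p = 0.0228).

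The 11 genes of acetyl-CoA supply had 2 higher in KO mTEChi, 7 in KO mTEClo, and 6 higher with 2 lower in KO cTEC, with medians of 0.30, 0.55 and 0.35. Dlat, a subunit of pyruvate dehydrogenase, was at 91.1 ± 2.46 CPM in KO mTEClo and 57.6 ± 3.77 CPM in WT mTEClo (0.66, adjusted p = 5.97e-05), with 0.52 in mTEChi and 0.71 in cTEC. Slc33a1, the acetyl-CoA transporter of the endoplasmic reticulum, was higher by 0.35, 0.55 and 0.52 in mTEChi, mTEClo and cTEC. Of 8 acetyl-lysine readers 7 could be tested, of which 3 were higher in KO mTEChi, 1 higher and 1 lower in KO mTEClo, and 1 higher and 2 lower in KO cTEC. The YEATS protein gene Mllt3 was higher in each subset (0.62, 0.39 and 0.67), and Brd2, a BET bromodomain gene, was at 193 ± 8.08 CPM in KO cTEC and 270 ± 39.1 CPM in WT cTEC (-0.49, adjusted p = 0.000706). All of these counts stand beside the shares of all genes called. Those were 17.1% higher and 19.3% lower in mTEChi, 18.9% and 15.8% in mTEClo, and 22.3% and 26.7% in cTEC.

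Across the 18 libraries, the genes whose log2 CPM followed each member most closely among 12919 genes were Gtf2h2 and Proser3 for Kat8 (Pearson r = 0.956 and 0.938), Sart1 and Rxrb for Kat5 (0.96 and 0.955), Adamts19 and Sult5a1 for Kat6a (0.97 and 0.961), and Xrcc5 and Tulp4 for Kat6b (0.983 and 0.977). For Kat2a they were Bag3 and Rcn3 (both 0.933), and for Kat2b Soga1 and Ctdsp1 (0.965 and 0.954). Ep300 was followed by Ptges2 and Plec (both 0.947), Crebbp by Cic and Ubp1 (0.939 and 0.924), and Hat1 by Taf9 and Cept1 (both 0.932). These libraries fall into 6 groups and share pools and scaling, so the values describe likeness of profile and carry no test.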

How the data were processed

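RNA was measured in 18 libraries made with the SMART-Seq v4 low-input and Nextera XT kits and read as 75 base paired ends, per the labels' protocols. The deposited values are raw counts of reads per gene, which came from featureCounts and the mm10 genome, per the submitters' processing notes. The aligner and the settings for multimapping reads are not given in the sources used here. The 18 single files held the same counts as the table of the series. Pools are separate per the labels and were taken as replicates, and whether sorting days differed is not given, so batch and genotype cannot be told apart.

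The analysis used edgeR 4.0.16 (R 4.3.3): filterByExpr (minimum count 10, 19364 genes kept), TMM scaling, 1 mean per group over all 18 libraries (12 residual degrees of freedom), glmQLFit and glmQLFTest, and Benjamini-Hochberg adjustment over all genes tested with a threshold of 0.05. Every adjusted p in the text is from this two-sided test unless another tool is named. Intervals are 95% and SE are from the fit. Depth was 6802970 to 13373646 counts in KO mTEChi and 3554089 to 8445355 in WT mTEChi, 14411708 to 19356071 in KO mTEClo and 6565309 to 9815559 in WT mTEClo, and 15822957 to 20054360 in KO cTEC and 13300969 to 18338441 in WT cTEC. Levels per kilobase used the counted length in the files. The test was checked on simulated data.

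Alternatives were RLE and upper quartile scaling, no filter, only the groups compared, each library left out, DESeq2 1.42.0, and the mouse pool as a block. Libraries with the same pool number come from the same mice per the labels, so the numbers pair subsets within a genotype; the correlation of their deviations from group means was -0.057 to 0.49. KO and WT pools share no number, so KO against WT was repeated with the pool as a random effect (limma 3.58.1, consensus correlation 0.105). The members and 22 gene lists were chosen with earlier results of these data known. Named genes besides the members are, from each list, up to 2 genes called in the same direction without overlap in the most subsets, taken by their largest adjusted p. Genes most alike were taken by Pearson r of log2 CPM (pseudocount 0.5) among genes of at least 5 CPM. Some marker genes were named for the check of the labelled cell types, and Prss8 was chosen after its values were seen. The result of 1 marker list is not reported here. Promoter sequences and coordinates are from RefSeq, GRCm38.p6.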

Additional observations from a re-analysis of the deposited data

Results flagged for a closer look

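The KO effect on Hat1 differed between subsets by a test of the difference itself. The log2 fold change of Hat1, KO over WT, was lower in mTEChi than in cTEC, with a difference of -0.69 (SE 0.19, adjusted p = 0.00868, edgeR), and lower in mTEClo than in cTEC, with a difference of -0.72 (SE 0.19, adjusted p = 0.00767). In cTEC all 3 KO libraries were above all 3 WT libraries, and in the medullary subsets KO and WT libraries overlapped. Both differences kept their call in each of the 17 alternatives run, with adjusted p of 0.00484 to 0.0365 and 0.00299 to 0.033.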

How the results depend on the processing

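Calls in KO against WT that kept their side of the threshold in all 12 alternatives were Kat2a in mTEClo and Kat5, Kat8 and Hat1 in cTEC. The count of members called in KO against WT in mTEChi was 2 and fell to 1 with upper quartile scaling and to 1 with no filter on low counts. mTEClo against cTEC gave 1 in the WT when only the groups compared were fitted, against 3, and in the KO 0 with upper quartile scaling and 2 with DESeq2, against 1. For the difference of KO effects, mTEChi against cTEC gave 2 with RLE, 2 with no filter and 3 with DESeq2, and mTEClo against cTEC gave 3 with upper quartile scaling and 3 with DESeq2, against 1 in each. With the mouse pool as a replicate block, mTEChi against mTEClo gave 1, against 0, and mTEClo against cTEC gave 2, against 1; the block changed no other call. Leaving out 1 library at a time gave counts of 0 to 2 (mTEChi), 1 to 2 (mTEClo) and 4 to 6 (cTEC) for KO against WT, 7 to 8, 7 to 9 and 1 to 3 for the WT subset pairs, 5 to 5, 5 to 8 and 0 to 1 for the KO subset pairs, and 0 to 0, 1 to 2 and 1 to 2 for the differences of KO effects, the last 3 sets in the order mTEChi with mTEClo, mTEChi with cTEC and mTEClo with cTEC. Changes of sign occurred only in values that were not called. In KO against WT these were Kat6a in mTEChi (-0.01 with RLE, -0.07 with upper quartile, -0.003 with DESeq2), Crebbp in mTEChi (-0.03 with upper quartile), Kat8 in mTEClo (-0.05 with RLE, -0.09 with upper quartile, -0.0006 with no filter, -0.06 with only the groups compared, -0.05 with DESeq2) and Ep300 in mTEClo (-0.04 with upper quartile, -0.01 with only the groups compared). Elsewhere they were Kat2a in mTEClo against cTEC in the WT (0.03 with upper quartile) and, for the KO effect in mTEChi against cTEC, Kat2a (0.02 with no filter) and Kat8 (0.01 with RLE, 0.05 with no filter, 0.01 with DESeq2). Leaving out 1 library turned the sign of Kat2b (-0.12 to 0.01), Kat6a (-0.02 to 0.10) and Hat1 (-0.11 to 0.06) in mTEChi, of Kat2b (-0.26 to 0.02), Kat8 (-0.05 to 0.07), Ep300 (-0.05 to 0.12) and Hat1 (-0.16 to 0.003) in mTEClo, and of Crebbp (-0.15 to 0.09) in cTEC. It also did so for Kat2b (-0.10 to 0.18) and Kat6a (-0.01 to 0.10) in mTEClo against cTEC in the WT, for the KO effect in mTEChi against mTEClo of Kat2b (-0.08 to 0.20), Kat5 (-0.10 to 0.18), Ep300 (-0.01 to 0.16) and Hat1 (-0.05 to 0.14), and for that in mTEChi against cTEC of Kat2a (-0.12 to 0.07), Kat6b (-0.19 to 0.003), Kat8 (-0.07 to 0.12) and Crebbp (-0.004 to 0.25). Over all 19364 genes tested, KO against WT in mTEChi gave 3305 higher and 3741 lower with TMM, with a median of -0.11. Upper quartile scaling gave 2514 higher and 4536 lower, with a median of -0.21. The median was -0.15 with no filter on low counts (24856 genes). It was -0.25 with DESeq2, which was also run without that filter (24843 genes). mTEClo against cTEC in the WT gave 5313 calls over all 18 libraries and 1161 higher and 1890 lower with only those groups. The cause of these shifts was not tested. With 3 libraries a group, the median 95% interval of a member reached 0.27 to either side on the log2 scale.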
